A study of Drosophila melanogaster with 20 samples.

Results

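Late glia of the Drosophila embryo were described from 4 of the 20 small RNA libraries of the series, chosen by their labels alone. Both repo-positive libraries (replicates 1 and 2) came from cells sorted as positive for the glial protein Repo, from embryos of 18-22 h after egg laying. Both repo-negative libraries (replicates 1 and 2) came from the cells of such embryos that the same sort left as negative. Cells had been dissociated, fixed in formaldehyde, stained with antibody and separated by flow cytometry, and the crosslinks were reversed before RNA was extracted. The labels give no strain or genotype. They name the libraries of a group as biological duplicates without saying that separate embryo collections were used. The p-values therefore measure only the spread between libraries of a group. That spread was estimated over all 20 libraries of the series in 10 groups, so sorts not described here enter it too. For 2 further questions the repo sort of 6-8 h embryos and the elav sort of 18-22 h embryos were used, each with 2 marker-positive and 2 marker-negative libraries. Elav is a neuronal protein, and the elav sort separates neurons from other cells as the repo sort separates glia.

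Repo is a homeodomain transcription factor of nearly all glia of the fly embryo, midline glia excepted. By the end of embryogenesis glia have divided the work of the nerve cord: surface glia close the blood-brain barrier with septate junctions, cortex glia enwrap cell bodies, ensheathing and wrapping glia line neuropil and axons, and astrocyte-like glia take up transmitters. MicroRNAs are cut from hairpin precursors and repress messenger RNAs with matching sites. Here a hairpin value sums all reads on 1 precursor, so the arms are not separated. The other rows of the tables are snoRNA, tRNA, rRNA and the exons of genes. Gene rows in size-selected libraries of fixed cells count short fragments of exons and are no measured mRNA level.

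The repo-positive libraries held 14580163 and 11927490 counts and the repo-negative libraries 14395755 and 18132980, of which hairpins took 3650568 and 1910829 in repo-positive and 2024686 and 2550610 in repo-negative cells. Rows that overlap a hairpin are counted again for the same reads and were left out of the shares that follow. Hairpins made up 32.6% and 18.7% of the counts in repo-positive and 16.0% and 16.0% in repo-negative libraries. Repo-positive replicate 1 therefore stood apart, with a lower rRNA share too (34.9%, against 44.8% in the other repo-positive library and 43.4% and 38.8% in the repo-negative ones). Gene fragments took 8.39% and 7.86% in repo-positive and 9.44% and 9.42% in repo-negative libraries. Wilson intervals (95%) of these shares reach at most 0.05 percentage points to either side and cover counting error only. With 2 libraries against 2, an exact two-sided permutation test cannot give a p below 0.333, so shares were not tested. Between the libraries of a fraction, log2 CPM correlated at 0.979 (repo-positive) and 0.985 (repo-negative) across hairpins, and at 0.916 and 0.924 across the other rows.

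The sort left its mark on the gene it used. Fragments of repo were at 129 and 132 CPM (scaled counts, on the non-hairpin counts of a library) in repo-positive libraries, against 3.12 and 2.78 CPM in repo-negative libraries. Both repo-positive libraries lay far above both others, and the log2 fold change of 5.46 ± 0.40 (SE, edgeR quasi-likelihood test, adjusted p = 9.42e-08) had the smallest p of all other rows. Fragments of elav were at 62.1 and 88.1 CPM in repo-positive and 76.9 and 87.6 CPM in repo-negative libraries, which overlap (-0.13 ± 0.32). Those of pros, a transcription factor of neural precursors and of some glia, were at 36.6 and 45.3 against 30.004 and 28.6 CPM and did not pass the test (0.48 ± 0.34, adjusted p = 0.702).

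Among the hairpins, mir-252 separated the fractions most. It was at 1535 and 1727 CPM (of hairpin counts) in repo-positive libraries, against 138 and 122 CPM in repo-negative libraries. The groups stand more than an order of magnitude apart, with a spread within each that is small beside the gap (log2 fold change 3.65 ± 0.45, edgeR adjusted p = 3.81e-05). In all, 9 of the 149 hairpins tested passed at an adjusted p under 0.05 (6.04%), 4 higher (2.68%) and 5 lower (3.36%) in repo-positive cells, over a median log2 fold change of 0.03 for all hairpins tested. Libraries of the fractions did not overlap for 87 of the 149 (58.4%). The precursor of mir-252 lies on chromosome arm 3R (13464219 to 13464311, minus strand, build BDGP6) inside an exon of asRNA:CR17025, an antisense RNA that takes the same reads.

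The other higher hairpins were abundant in both fractions. Hairpin mir-276a (3L, 10365228 to 10365325, plus strand, in an exon of lncRNA:CR46006), which tunes olfactory memory in adult flies, was at 184460 and 155820 CPM in repo-positive against 45251 and 51145 CPM in repo-negative libraries (1.82 ± 0.34, adjusted p = 0.00419, edgeR). Bantam, the growth-promoting and apoptosis-blocking microRNA listed as mir-ban (3L, 642208 to 642288, plus strand), was at 23301 and 17777 against 6712 and 6998 CPM (1.58 ± 0.35, adjusted p = 0.0127). Hairpin mir-279 (3R, 29215585 to 29215684, plus strand), which limits the formation of carbon dioxide-sensing neurons in flies, was at 1952 and 2513 against 1054 and 1090 CPM (1.06 ± 0.27, adjusted p = 0.0303). For all 3 the lower repo-positive library lay above the higher repo-negative one, by the smallest margin for mir-279. A lack of overlap was common, at 58.4% of all hairpins tested. Together with mir-184, mir-276a set much of the profile: mir-184 took 50.9% and 48.4% of hairpin counts in repo-positive and 51.3% and 39.6% in repo-negative libraries, and mir-276a took 16.9% and 16.0% against 5.01% and 5.95%.

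Lower in repo-positive cells were 5 hairpins, of which mir-8 and the mir-31 pair are known from epithelia. The pair mir-31a (2R) and mir-31b (X, 8993305 to 8993431, minus strand) are near-identical, share reads and count as 1 signal: mir-31b was at 3978 and 5995 CPM in repo-positive against 10707 and 16117 CPM in repo-negative libraries (-1.43 ± 0.35, adjusted p = 0.0255, edgeR). Hairpin mir-8, the fly member of the miR-200 family, was at 2569 and 3740 against 6650 and 8441 CPM (-1.26 ± 0.35, adjusted p = 0.0379). Hairpin mir-283 (X, 15507956 to 15508055, plus strand, within Gmap) was at 3788 and 4686 against 8065 and 10609 CPM (-1.14 ± 0.32, adjusted p = 0.0379), and mir-312 of the mir-310 cluster was at 680 and 892 against 1617 and 1439 CPM (-0.96 ± 0.26, adjusted p = 0.0379). The fractions did not overlap for any of these, nor for 87 of all 149 hairpins tested (58.4%). The gaps were smaller than that of mir-252. The plot of hairpin CPM by library shows all 9.

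**Figure D1:**
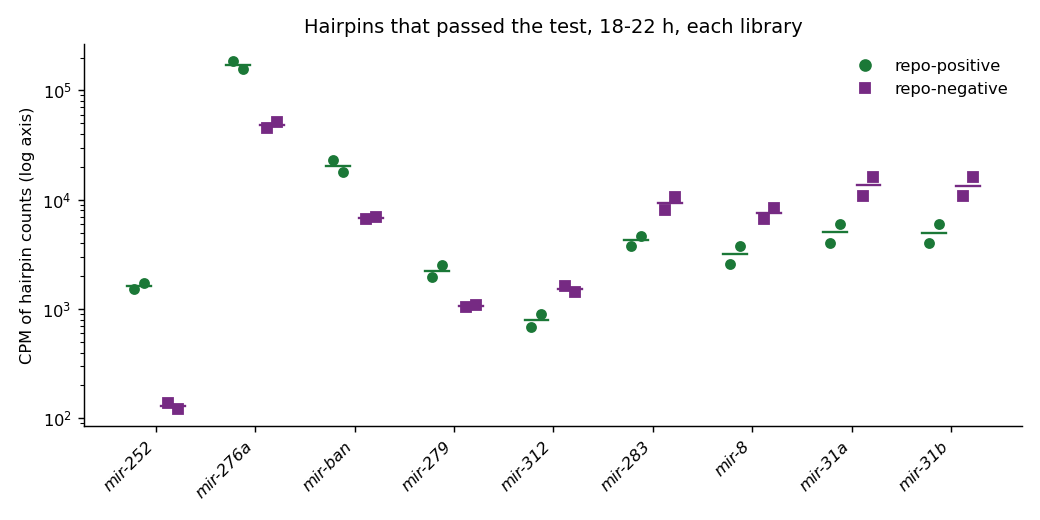
CPM of hairpin counts (log axis) of the 9 hairpins that passed the test, ordered by fold change, in each of the 2 repo-positive (green circles) and 2 repo-negative (purple squares) libraries of 18-22 h, with the mean as a bar. The fractions do not overlap for any of the 9, nor for 58.4% of all 149 hairpins tested. The widest gap is that of mir-252 (1535 and 1727 against 138 and 122 CPM).

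How far these calls hold differs between the hairpins. Each of the 9 kept its sign in each fit that left out 1 of the 4 libraries, but mir-252 alone was called in 3 of those 4 fits: its call ended without repo-negative replicate 2 (3.22, adjusted p = 0.12). The calls of mir-31a and mir-31b were kept only without repo-negative replicate 1. The other 6 calls ended in all 4 of these fits (adjusted p of 0.117 to 0.511 for mir-276a, 0.117 to 0.575 for mir-ban, 0.531 to 0.953 for mir-279, 0.0721 to 0.531 for mir-8, 0.2 to 0.557 for mir-283 and 0.356 to 0.531 for mir-312). The choice of the library to which the TMM factors refer moved the calls as well: over the 20 possible references, mir-252 was called with all 20, mir-276a and mir-ban with 14, mir-279 with 5, mir-31a and mir-31b with 4, mir-8 and mir-283 with 3 and mir-312 with 2. With factors from all rows instead of hairpins, the median log2 fold change over hairpins shifted by 0.437 and edgeR called 0 hairpins (1 at an unadjusted p under 0.05), while the fold change of mir-252 stayed above 0. The sign held under every setting run for all 9 but mir-312, which was at 0.007 under 1 TMM reference. The split of higher and lower calls moved too: it was 3 and 7 with RLE factors, 3 and 0 with factors from rounded counts or without the 5 most abundant hairpins, and 20 and 0 with the reference library that gave the most calls.

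Below the threshold stood 13 further hairpins at an unadjusted p under 0.05 with no overlap between the fractions, 5 above and 8 below 0. The muscle hairpin mir-1 was at 25551 and 19548 CPM in repo-positive against 51618 and 95257 CPM in repo-negative libraries (-1.70 ± 0.72, adjusted p = 0.244, edgeR). Hairpin mir-bft (bereft, mir-263a), which protects sensory bristle cells from apoptosis, was at 8474 and 15848 against 33231 and 44047 CPM (-1.67 ± 0.52, adjusted p = 0.0683), and mir-9a, a limiter of sensory organ precursors, at 2875 and 5856 against 7202 and 11904 CPM (-1.13 ± 0.39, adjusted p = 0.105). The other 5 below 0 were mir-980, mir-3, mir-316, mir-375 and mir-92b (-3.07 to -0.88). The 5 above 0 were mir-284 (1.39 ± 0.65), mir-276b (0.85 ± 0.38), mir-2a-2, mir-2b-2 and mir-14 (0.68 ± 0.32). None of the 13 passed the test, and with DESeq2 17 hairpins were called, 4 higher and 13 lower.

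By family, the hairpins known from neurons did not separate the late fractions. Of 11 hairpins listed for the nervous system 0 were called by edgeR (0 at an unadjusted p under 0.05), with a median log2 fold change of -0.24. The neuronal hairpin mir-124 was at 36.1 and 60.7 CPM in repo-positive against 37.5 and 40.8 CPM in repo-negative libraries (0.30 ± 0.47), and mir-315, the most abundant of the list, at 6458 and 9162 against 4481 and 4966 CPM (0.73 ± 0.47). In the elav sort of the same stage 10 of the 11 were called higher in elav-positive cells, where 31 of all 149 hairpins were (20.8%). The K-box hairpins (the mir-2 and mir-13 families with mir-11) had 0 of 9 called by edgeR, 2 at an unadjusted p under 0.05, yet all 9 fold changes were above 0 (0.38 to 0.84, median 0.73). Several of these are near-identical copies that share reads. Of 5 epithelial and gut hairpins, 3 were lower (mir-8 and both mir-31 hairpins, which share reads), where 5 of all 149 hairpins were (3.36%). The list's median was -1.42, and in the elav sort of 18-22 h it was -3.26. Its other members mir-375 (-1.32 ± 0.45) and mir-958 (-1.47 ± 1.03) did not pass. Of 7 widely expressed hairpins 2 were higher (mir-276a and mir-ban), against 2.68% of all hairpins tested, and the median of the list was 0.69. The remaining lists had 1 higher of 9 sensory organ hairpins (mir-279; median -0.29), 1 lower of 5 of the mir-310 cluster (mir-312; -0.48) and 1 lower of 3 of the mir-283 cluster (mir-283; -1.10). Lists with 0 calls by edgeR, with 1, 1, 0, 0 and 0 members at an unadjusted p under 0.05, were the 8 early zygotic hairpins (0.12), the 2 of muscle (-0.90), the 3 of the mir-277 cluster (0.63), the 3 of the let-7 complex (0.89) and the 4 of the Hox clusters (0.14).

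Set beside the other sorts, these hairpins fell into different patterns. At 6-8 h, 8 of the 9 were called in the same direction in the repo sort, in which 35 of the 149 hairpins were called in either direction (23.5%), and mir-8 did not pass there (-0.83, adjusted p = 0.0971). The gap of mir-252 was narrower at 18-22 h than at 6-8 h, when repo-positive cells averaged 2545 ± 163 CPM and repo-negative cells 27.0 ± 3.74 CPM (SD, n = 2 libraries each; 6.55). That difference between the stages passed its own test (-2.90 ± 0.59, edgeR adjusted p = 0.00963), though not without repo-positive replicate 1 (-2.23), repo-positive replicate 2 (-2.09) or repo-negative replicate 1 (-2.12; adjusted p of 0.36 to 0.426). In the elav sort of 18-22 h mir-252, mir-ban and mir-279 were lower in elav-positive cells (-1.34, -2.57 and -2.18), and mir-276a did not pass (0.10, adjusted p = 0.903).

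The contrast of the repo sort minus that of the elav sort was positive and passed for all 9 as scaled here (by total hairpin counts mir-283 turned to -0.056 and mir-8 was at 0.015, and of 11 settings mir-283 was called in 5 and mir-8 in 3), among 34 of the 149 hairpins (22.8%), 18 above and 16 below 0. It was 4.99 ± 0.60 for mir-252, 4.15 ± 0.50 for mir-ban and 3.24 ± 0.39 for mir-279 (edgeR adjusted p = 8.06e-06 each). These 3 kept the call without each of the 4 repo libraries in turn (4.44 to 4.83, 3.30 to 4.09 and 2.67 to 3.18). For the other 6 it was 1.31 to 2.13. All of the 6 but mir-276a were lower in both marker-positive fractions and more so in the elav sort, and each lost the call without each of the 4 libraries (adjusted p of 0.077 to 0.812). This contrast moved with the scaling: by total hairpin counts its median over hairpins shifted by -1.382 and the 34 calls were split 4 and 30. With the 5 most abundant hairpins left out of the scaling the split was 7 and 25, and with factors from rounded counts it was 8 and 20. By TMM from all rows it shifted by -0.904 with 0 calls (edgeR, 17 at an unadjusted p under 0.05).

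**Figure D2:**
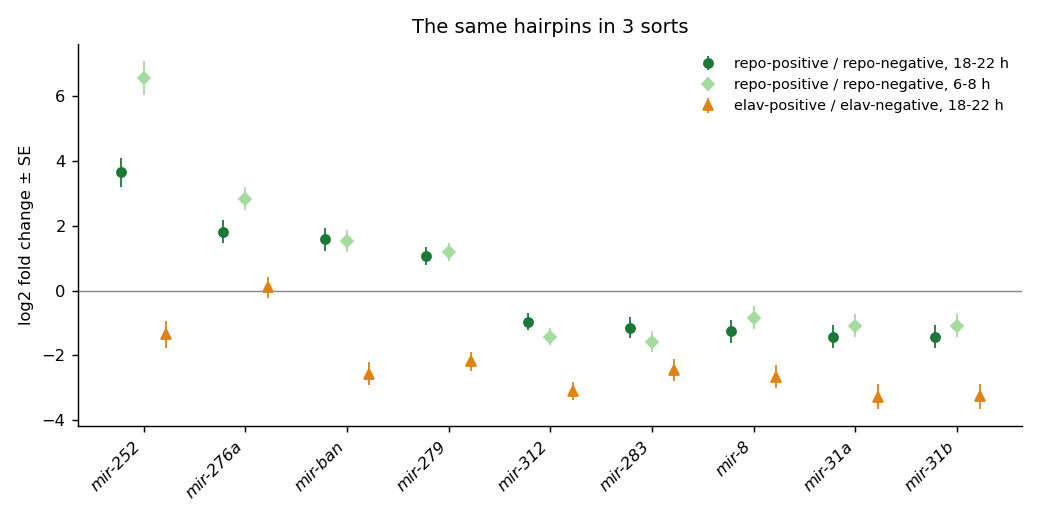
Log2 fold change ± SE of the 9 hairpins in the repo sort of 18-22 h (green circles), the repo sort of 6-8 h (pale diamonds) and the elav sort of 18-22 h (orange triangles), marker-positive over marker-negative cells, edgeR, 2 libraries a fraction. Those of mir-252, mir-ban and mir-279 are above 0 in both repo sorts and below 0 in the elav sort.

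Among the other rows, most calls fell on gene fragments, which were also most of the rows tested. Of 11748 rows tested, 272 passed (2.32%), 174 higher (1.48%) and 98 lower (0.834%) in repo-positive cells, and libraries did not overlap for 5522 (47%). Gene rows made up 167 of the higher and 93 of the lower calls, and 10258 of the 11748 rows tested. The smallest change called was 1.25 on the log2 scale among the higher rows and, in size, 1.29 among the lower ones, against a median of -0.10 for all rows tested. Of the 174 higher rows, 102 were also called higher at 6-8 h and 0 lower, where 276 of all 11748 rows were called higher (2.35%). Of the 98 lower rows, 14 were also called lower at 6-8 h and 0 higher, where 118 of all rows were called lower (1%). These counts depend on the libraries: without repo-positive replicate 1 the calls were 72 higher and 30 lower, without replicate 2 they were 106 and 29, without repo-negative replicate 1 they were 46 and 21, and without replicate 2 they were 52 and 62. The fragments cannot tell fewer cells of a type from less RNA per cell.

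Fragments of known glial genes were higher. Over 5 lists of glial genes (42 genes tested), 26 were higher and 0 lower, and 41 fold changes were above 0 (median 2.76). Of all 11748 non-hairpin rows tested, 174 were higher (1.48%), and 5297 fold changes were above 0. Fragments of astrocyte-like glia led: Gat, the GABA transporter of these cells, was at 603 and 616 CPM in repo-positive against 7.21 and 7.25 CPM in repo-negative libraries (6.39 ± 0.65, adjusted p = 1.05e-05, edgeR). The astrocyte marker alrm was at 213 and 208 against 1.72 and 3.38 CPM (6.35 ± 0.70, adjusted p = 4.14e-05). Replicates of a fraction nearly coincide for Gat, and neither gene's fractions come near each other. Glutamine synthetase 2 (Gs2) was at 132 and 47.6 against 2.37 and 0.397 CPM (6.02 ± 1.06, adjusted p = 0.00215), and the glutamate transporter Eaat1 at 94.98 and 50.006 against 3.76 and 1.19 CPM (4.87 ± 0.99, adjusted p = 0.00736). With the innexins ogre (1.82 ± 0.35) and Inx2 (1.33 ± 0.32), gap junction proteins, 6 of 8 genes of this list were higher (median 3.55). The other 2 did not pass: ebony (e), which conjugates amines (1.20 ± 0.76), and Eaat2 (2.22 ± 0.82).

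Genes of the blood-brain barrier were higher as well. Of 16 septate junction genes 12 were higher and all 16 fold changes were above 0 (0.78 to 3.63, median 2.36). Among all non-hairpin rows tested, 1.48% were higher. The immunoglobulin protein Lachesin (Lac) was at 180 and 167 CPM in repo-positive against 21.4 and 16.8 CPM in repo-negative libraries (3.18 ± 0.37, adjusted p = 4.48e-05, edgeR), and the Na,K-ATPase subunit nrv2 at 539 and 276 against 42.9 and 39.5 CPM (3.31 ± 0.42, adjusted p = 0.000145). Each lies several-fold above the repo-negative libraries, although the repo-positive replicates of nrv2 differ from each other. The claudin-like sinu and kune, the Ly6 proteins cold and crok, and Nrx-IV, Cont, Nrg, cora, Gli and Tsf2 were also higher (1.91 to 3.63), and Atpalpha, pck, vari and bou did not pass (0.78 to 2.07). The surface glia receptor moody, which is coupled to G proteins, was at 147 and 113 against 8.71 and 7.84 CPM (3.97 ± 0.60, adjusted p = 0.000719). Of the 6 surface glia genes 4 were higher (Gli, Mdr65, moody and Tsf2; median 2.93), and the trehalose transporter Tret1-1 (1.53 ± 0.88) and loco (0.27 ± 0.34) did not pass.

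Of the 5 cortex and ensheathing genes 3 were higher (zyd, axo and Cyp4g15; median 3.46), where 1.48% of all non-hairpin rows were. The calcium exchanger zydeco (zyd) was at 191 and 189 CPM in repo-positive against 20.6 and 13.8 CPM in repo-negative libraries (3.46 ± 0.43, adjusted p = 9.93e-05, edgeR). The gene wrapper was at 16.7 and 19.6 against 1.83 and 2.68 CPM and did not pass (2.997 ± 0.90, adjusted p = 0.0977). Genes of glial fate and signalling were mixed: repo, the FGF receptor htl (47.4 and 39.8 against 4.09 and 7.74 CPM, 2.88 ± 0.46) and gcm, the switch gene of gliogenesis (2.81 ± 0.66), were higher. Values of pnt, loco, drpr, ttk, pyr and ths were -0.46 to 0.83 and did not pass, nor did gcm2, with 19 counts in repo-positive and 1 in repo-negative libraries (ratio 26.4, 95% interval 4.19 to 1100.0, counting error only). The phagocytosis list had 1 higher of 9 (the GTPase Rac2, 2.32 ± 0.44; median 0.96). Of the 3 midline glia genes the EGF antagonist aos was higher (35.8 and 29.5 against 6.24 and 5.36 CPM, 2.49 ± 0.46), while the midline regulator sim was low in both fractions, which overlap (0.135 and 1.68 against 1.83 and 0.993 CPM) and sli did not pass (0.79 ± 0.34).

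Not all of these glial calls rested evenly on the libraries. Of the 26, 10 were called in each of the 4 fits that left out 1 library. They were repo, Gat, alrm, Lac, nrv2, Gli, moody, Tsf2, axo and zyd. Calls that ended without repo-positive replicate 1 were Gs2, Eaat1, ogre, Inx2, Cyp4g15, Mdr65, cora, Cont and crok. Without repo-positive replicate 2 they were Inx2, Mdr65, crok and gcm. Without repo-negative replicate 1 they were htl, gcm, Eaat1, ogre, Inx2, Cyp4g15, Mdr65, cora, sinu, Nrx-IV, crok, Cont and Nrg. Without repo-negative replicate 2 they were Gs2, gcm, Eaat1, ogre, Inx2, Cyp4g15, Mdr65, cora, cold, kune, crok, Cont and Nrg. Those of Rac2 and aos ended without either repo-negative library, and that of Rac2 without repo-positive replicate 1 too. The values without a library were 1.12 to 5.89 for all of these, with Gs2 at 5.22 without repo-negative replicate 2 and 5.08 without repo-positive replicate 1.

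Ranked by fold change among called rows annotated as genes that averaged 5 CPM or more in repo-positive libraries, the 15 leading ones were CG15890, CG11670, AnxB10, Gat, alrm, CG4409, Gs2, Nepl15, CG9686, NimA, CG40470, repo, CG32032, DAT and CG10550. Fitted log2 fold changes were 5.01 to 6.66 for all but CG15890. A row without a class in the annotation used, CG31235 in the authors' deposited table, would stand among them (5.77, adjusted p = 2.19e-05, edgeR). Fragments of Nepl15, a neprilysin-like protein, were at 724 and 256 CPM in repo-positive against 8.82 and 6.85 CPM in repo-negative libraries (5.97 ± 1.03, adjusted p = 0.00177, edgeR). The dopamine transporter DAT was at 83.5 and 48.5 against 3.12 and 0.695 CPM (5.11 ± 1.08, adjusted p = 0.00991), and CG32032 at 178 and 124 against 3.33 and 3.67 CPM (5.42 ± 0.84, adjusted p = 0.000832). Several of the 15 had hardly any count in repo-negative libraries. For CG15890, with 84 counts in repo-positive and 0 in repo-negative libraries, the ratio was at least 38.8-fold higher (3 counts over both libraries taken as the floor). The annexin AnxB10 had 148 counts against 2 (ratio 103, interval 27.9 to 856), and CG9686 had 102 against 2 (70.8, 19.1 to 592). Of the 15, Gat, alrm, repo and CG32032 were called in each fit that left out 1 library, while CG15890, CG9686 and NimA were called in 0 of the 4 (NimA 5.35 to 6.70, adjusted p of 0.0628 to 0.245). The calls of AnxB10, DAT, CG10550 and CG40470 ended without repo-positive replicate 1, and those of all 4 and of CG11670 and Nepl15 without either repo-negative library (5.78 and 6.14 for Nepl15). That of CG4409 ended without repo-negative replicate 1 (6.17, adjusted p = 0.0622). Of the non-coding RNAs, lncRNA:CR30009 was at 85.6 and 139 against 7.96 and 13.7 CPM (3.37 ± 0.46, adjusted p = 0.000269), and lncRNA:CR45820 had 90 counts against 0 (at least 41.6-fold higher; called in 1 of the 4 fits).

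**Figure D3:**
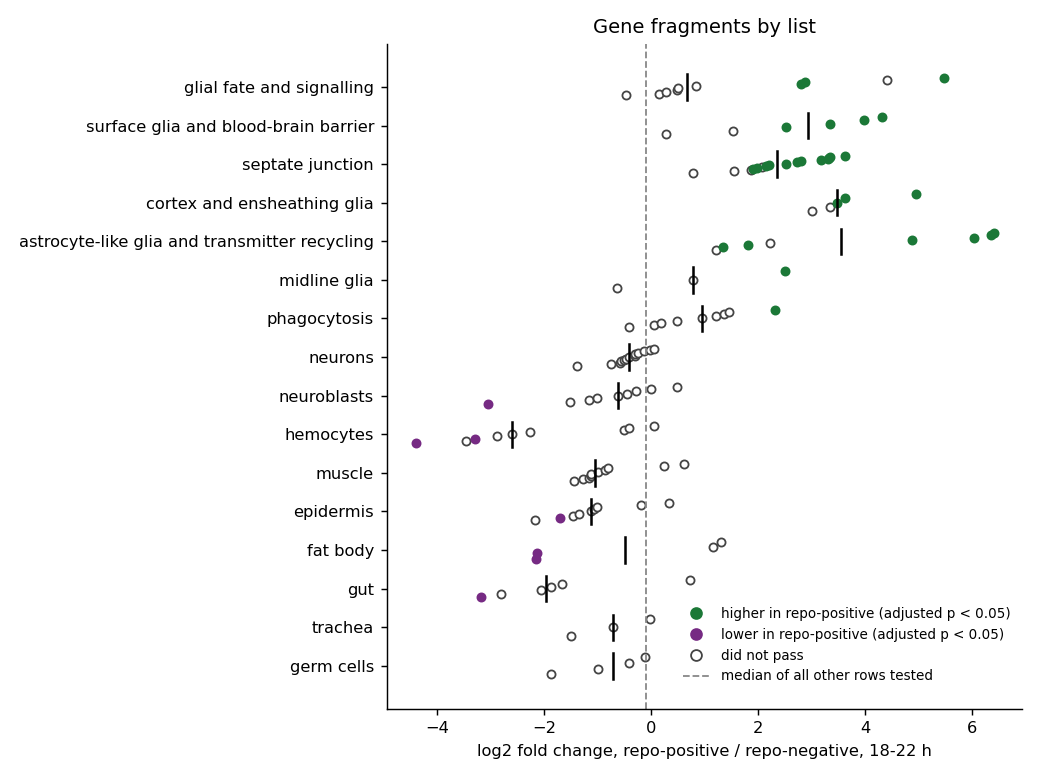
Log2 fold change, repo-positive over repo-negative cells at 18-22 h, of the tested gene fragments of each list (1 dot a gene; edgeR, 2 libraries a fraction), with the list's median as a black bar and the median of all other rows tested (-0.10) as a dashed line. Filled dots passed at an adjusted p under 0.05: green dots lie on the glial, septate junction, midline glia and phagocytosis lists, purple dots on the neuroblast, hemocyte, epidermis, fat body and gut lists.

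Fragments of neuronal genes were present in both fractions and did not separate them by the test. Of 13 neuron genes 0 were called by edgeR (0 at an unadjusted p under 0.05), with a median of -0.42. Yet 12 of the 13 fold changes were below 0, all but that of nSyb. Of all 11748 non-hairpin rows tested, 6427 were below 0. The synaptic vesicle gene nSyb was at 24.1 and 27.4 CPM in repo-positive against 25.1 and 24.7 CPM in repo-negative libraries (0.05 ± 0.54), and the active zone gene brp at 50.8 and 44.2 against 70.7 and 56.1 CPM (-0.42 ± 0.34). The 13 genes together held 404.2 and 451.7 CPM in repo-positive and 590.3 and 506.7 CPM in repo-negative libraries, and none of the 13 was at 0 in any of the 4. In the elav sort of the same stage the sums were 2355 and 1995 CPM in elav-positive and 81.6 and 118 CPM in elav-negative libraries. The sums of the repo-positive libraries thus lie between those of the elav fractions, and their part in the results above was not tested. Of 9 neuroblast genes wor was lower (0.808 and 0.459 against 5.59 and 5.26 CPM, -3.05 ± 0.69, adjusted p = 0.0164; median of the list -0.61), and its call ended in each of the 4 fits that left out 1 library (adjusted p of 0.0671 to 0.214).

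Lists of cell types outside the nervous system had medians below 0, though few members passed. Among all non-hairpin rows tested, 0.834% were lower, and the median was -0.10. Of the 9 hemocyte genes 2 were lower (Pxn and NimC1; median -2.60). The summed level of the 9 was 32.6 and 23.9 CPM in repo-positive and 312 and 152 CPM in repo-negative libraries, and the defining genes Hml (4.18 and 4.13 against 30.3 and 9.43 CPM) and eater (1 count against 18; 13.0-fold lower, interval 2.05 to 541) did not pass. Of 4 fat body genes the lipophorin genes apolpp (144 and 243 against 778 and 947 CPM, -2.16 ± 0.40, adjusted p = 0.00336, edgeR) and Apoltp (-2.13 ± 0.55) were lower, while Adh (45.9 and 34.6 against 13.0 and 19.7 CPM, 1.3001 ± 0.53, adjusted p = 0.309) and Mtp (1.16 ± 0.62) were above 0 and did not pass. Of 6 gut genes the endoderm factor GATAe was lower (3.64 and 3.67 against 37.5 and 28.9 CPM, -3.18 ± 0.67, adjusted p = 0.00963), and of 9 epidermal genes ovo (6.74 and 5.66 against 21.9 and 18.5 CPM, -1.70 ± 0.42, adjusted p = 0.032). The 10 muscle genes had 0 calls by edgeR (6 at an unadjusted p under 0.05; median -1.05), with Mhc at 128 and 97.4 against 297 and 204 CPM. The 3 tracheal and 4 germ cell genes had 0 calls (0 and 1 at an unadjusted p under 0.05; medians -0.71 and -0.70). In these lists Pxn was called in all 4 fits that left out 1 library. The call of apolpp ended without repo-positive replicate 1 (-1.85, adjusted p = 0.11) and that of GATAe without all but repo-negative replicate 2 (-3.20 to -2.999, adjusted p of 0.0823 to 0.143). Those of NimC1, Apoltp and ovo ended in all 4.

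The lower rows included proteins of the extracellular matrix, a grouping made after the values were seen. Papilin (Ppn), a matrix proteoglycan, was at 190 and 127 CPM in repo-positive against 3207 and 1483 CPM in repo-negative libraries (-3.89 ± 0.67, adjusted p = 0.00177, edgeR). The collagen IV chain Col4a1 was at 222 and 105 against 2492 and 1184 CPM (-3.49 ± 0.53, adjusted p = 0.000721), and the collagen-binding SPARC at 15.4 and 10.9 against 181 and 83.3 CPM (-3.33 ± 0.48, adjusted p = 0.000518). In each case repo-negative replicate 1 was the higher of its group. Of 10 basement membrane genes 9 were tested and 8 were lower, where 98 of all 11748 rows were (0.834%). They were Col4a1, vkg (-3.46 ± 0.56), LanA (-2.75 ± 0.41), LanB1 (-2.32 ± 0.47), LanB2 (-2.45 ± 0.43), SPARC, Ppn and the peroxidasin Pxn (6.87 and 7.80 against 220 and 89.5 CPM, -4.40 ± 0.62, adjusted p = 0.000407). An exon of Pxn overlaps lncRNA:CR45660, and reads there were counted for both. Nidogen (Ndg) did not pass (-0.80 ± 0.40). The secreted Glt (-3.82 ± 0.62) and Tig (-2.95 ± 0.45) were lower as well. The call of LanB1 was kept only without repo-negative replicate 2, and that of LanB2 ended without repo-negative replicate 1 (-2.03). In the elav sort of 18-22 h the same 8 genes were also lower in elav-positive cells (-4.27 to -3.37), as were Glt (-3.81) and Tig (-3.61). The median of all non-hairpin rows tested was -0.18 in that sort, and the share of them called lower there was not counted.

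With the same limit on the repo-negative mean, which left out rows of few counts such as E(spl)m4-BFM, the 15 leading lower gene rows by fold change were CG6550, NtR, CG31777, CG15927, CG33278, CG44836, Pxn, CG34437, Gr59e, Ilp4, CG1092, CG31051, CG10934, Ppn and Cyp4g1 (-5.68 to -3.86). Among those with a known product, Gr59e encodes a gustatory receptor (11.99 and 3.67 against 234 and 93.9 CPM, -4.38 ± 0.96), Ilp4 an insulin-like peptide (-4.20 ± 0.87) and Cyp4g1 the hydrocarbon-making cytochrome P450 of oenocytes (2.02 and 0.918 against 19.9 and 23.6 CPM, -3.86 ± 1.01, adjusted p = 0.0448, edgeR). The uncharacterised CG6550 was at 0.135 and 0.459 against 18.0 and 13.3 CPM (-5.68 ± 0.84, adjusted p = 0.000702). Of the 15, CG6550, Pxn, CG1092 and Ppn were called in each fit that left out 1 library, and CG34437 and Cyp4g1 in 0 of the 4 (-4.57 to -3.44 for Cyp4g1). Calls ended without repo-negative replicate 1 for the other 9 (-4.79 to -3.14). They ended without repo-positive replicate 2 for NtR, CG15927, CG33278, CG44836, Gr59e, Ilp4, CG31051 and CG10934, without repo-positive replicate 1 for CG31777, CG15927, CG44836, Gr59e and CG31051, and without repo-negative replicate 2 for CG10934. One non-coding RNA, lncRNA:CR43887, was lower (0.943 and 0.612 against 7.31 and 7.94 CPM, -3.26 ± 0.55, adjusted p = 0.00164).

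**Figure D4:**
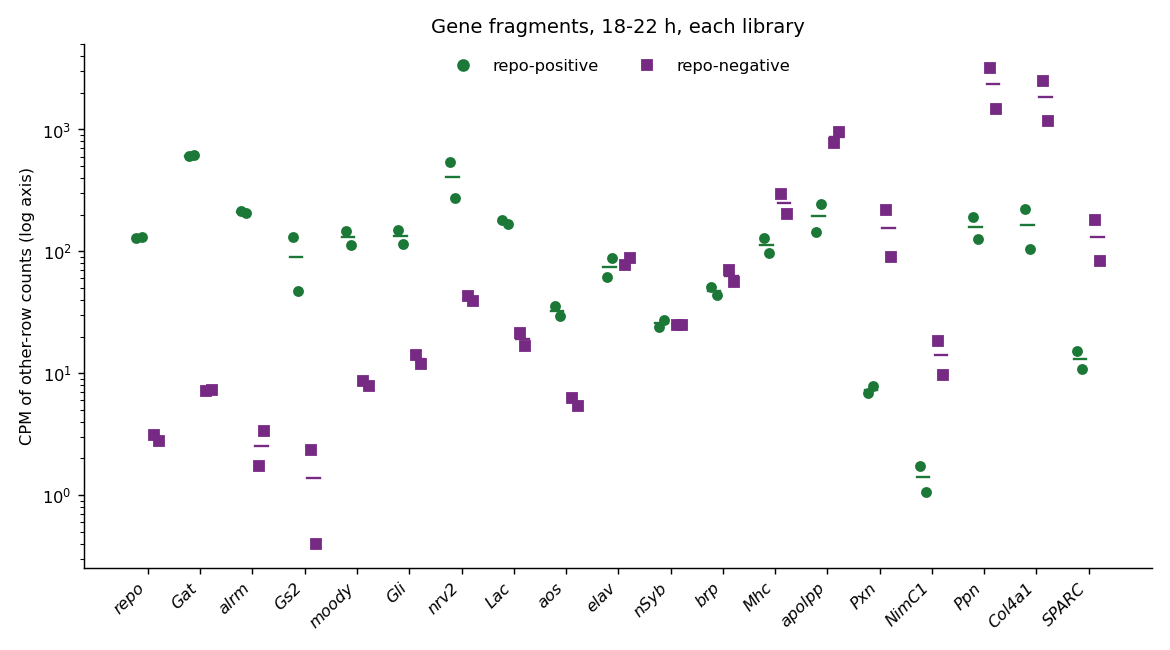
CPM of the non-hairpin counts (log axis) of gene fragments in each of the 2 repo-positive (green circles) and 2 repo-negative (purple squares) libraries of 18-22 h, with the mean as a bar. From left to right stand the sort gene, glial and septate junction genes, aos, neuron genes (elav, nSyb and brp, close together or overlapping), muscle and fat body genes, and genes of hemocytes and matrix (Ppn at 190 and 127 against 3207 and 1483 CPM).

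Small structural RNAs did not separate the fractions by the test. Of 249 snoRNA rows 0 were called by edgeR (18 at an unadjusted p under 0.05), yet 217 fold changes were below 0 and the median was -0.45. Of these rows 102 were lower in both repo-positive libraries than in both others and 9 higher. Of all 11748 non-hairpin rows tested, 6427 were below 0, and 5522 (47%) had no overlap in either direction. The shares of snoRNA were 13.7% and 16.1% of counts in repo-positive and 18.8% and 24.1% in repo-negative libraries. Scaled on snoRNA counts alone, the median was -0.02, again with 0 calls. Rows guiding methylation had a median of -0.45 over 79 rows, and those guiding pseudouridylation one of -0.44 over 110 rows. The lowest p among snoRNA was that of snoRNA:Psi18S-525a, at 14.4 and 18.7 CPM in repo-positive against 27.2 and 36.0 CPM in repo-negative libraries (-0.94, adjusted p = 0.202). Of 274 tRNA rows 0 were called (4 at an unadjusted p under 0.05; median -0.10), and scaled on tRNA counts alone 1 was. The 31 snRNA, 36 rRNA and 32 mitochondrial rows had 0 calls by edgeR (1, 0 and 0 at an unadjusted p under 0.05; medians 0.13, -0.05 and 0.06). The 84 ribosomal protein genes had a median of -0.07, and none was called. Their summed CPM were 14510 and 17190 in repo-positive and 17580 and 47040 in repo-negative libraries, so repo-negative replicate 2 stood apart.

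Between the stages few repo contrasts differed by their own test. Among hairpins 8 of 149 did (5.37%), all with a smaller contrast at 18-22 h than at 6-8 h. That one-sided split was not kept in every setting: it was 12 above and 11 below 0 without both elav 6-8 h replicate 2 libraries, 8 and 17 with a replicate block, and 4 and 12 with DESeq2. Hairpin mir-87 was at 872 and 1152 CPM in repo-positive against 1384 and 1001 CPM in repo-negative libraries at 18-22 h, while at 6-8 h it averaged 917 ± 256 and 55.2 ± 5.4 CPM (SD, n = 2 each; difference of contrasts -4.29 ± 0.46, edgeR adjusted p = 5.27e-06). In CPM as scaled here, the repo-positive level of mir-87 was alike at both stages and its repo-negative level was higher at the later one. Stages were not compared within a fraction by a test. With mir-252 and mir-87, mir-276b, mir-927, mir-219, mir-993, mir-263b and mir-1017 passed (-5.83 to -2.45), of which mir-87, mir-927 and mir-219 are on the nervous system list. At 6-8 h, 7 of the 11 hairpins of that list had been called higher in repo-positive cells, as had 22 of all 149 hairpins (14.8%), and 5 of the 13 neuron genes, against 2.35% of all other rows. Of these 8 differences that of mir-87 alone was kept without each of the 4 late libraries in turn (-5.00 to -3.34), and the other 7 were kept only without repo-negative replicate 2.

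Among the other rows 10 of 11748 differed between the stages (0.0851%), named here after their values were seen. Fragments of bangles and beads (bnb) were at 389 and 198 CPM in repo-positive against 23.7 and 45.4 CPM in repo-negative libraries at 18-22 h (3.09 ± 0.40, edgeR), against 105 ± 21.6 and 228 ± 13.5 CPM at 6-8 h. It was the 1 row whose contrast was larger at the later stage (4.20 ± 0.54, adjusted p = 0.00156), and it kept that call without each late library (3.63 to 4.75). In CG6550 (-6.32), the chitinase gene Cht8 (-5.45), Ntf-2r (-4.02), teq (-3.97), CG2604 (-3.94) and the integrin ligand Tig (-3.29), repo-positive cells held less than repo-negative cells at 18-22 h and no called difference at 6-8 h. In Ank2 (-2.57), chinmo (-2.19) and zormin (-3.12) it was the early contrast that was called (2.72, 2.32 and 3.26), against 0.15, 0.13 and 0.14 at 18-22 h. An exon of Ank2 overlaps CG44195, and reads there were counted for both. Of the 10 differences, bnb and Cht8 kept the call without repo-positive replicate 1, bnb alone without repo-positive replicate 2, bnb and Cht8 without repo-negative replicate 1, and all but chinmo, teq, zormin and Ntf-2r without repo-negative replicate 2.

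The authors' deposited table for this sort pairs microRNAs with genes that changed the other way. It gives no direction in its header, and was read as repo-positive over repo-negative cells from the sign of mir-252 (3.39 in the authors' deposited table, 3.65 here). All 18 microRNAs of the authors' deposited table, 4 above and 14 below 0, had the same sign here, and all 9 hairpins called here are among them. The match of mir-252 was set by that reading. Its microRNA values are for the same sort of the same series, so matching signs are no independent support from the authors' deposited table. Which libraries its gene values come from is not given in the sources used here. Every one of its 1155 pairs had opposite signs. The authors' deposited table holds 618 genes, of which 611 had fragments that were tested here. For the 421 above 0 with fragments, the median was 1.72 in the authors' deposited table and 1.41 in the fragments, 415 fragments were above 0 and 113 were called higher. For the 190 below 0 the medians were -1.54 and -1.07, 174 fragments were below 0 and 14 were called lower. Across the 611 genes Pearson's r was 0.892; the table lists changed genes alone, and within the genes above 0 it was 0.852 and within those below 0 it was 0.468. These are correlations across genes, which are not independent replicates.

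**Figure D5:**
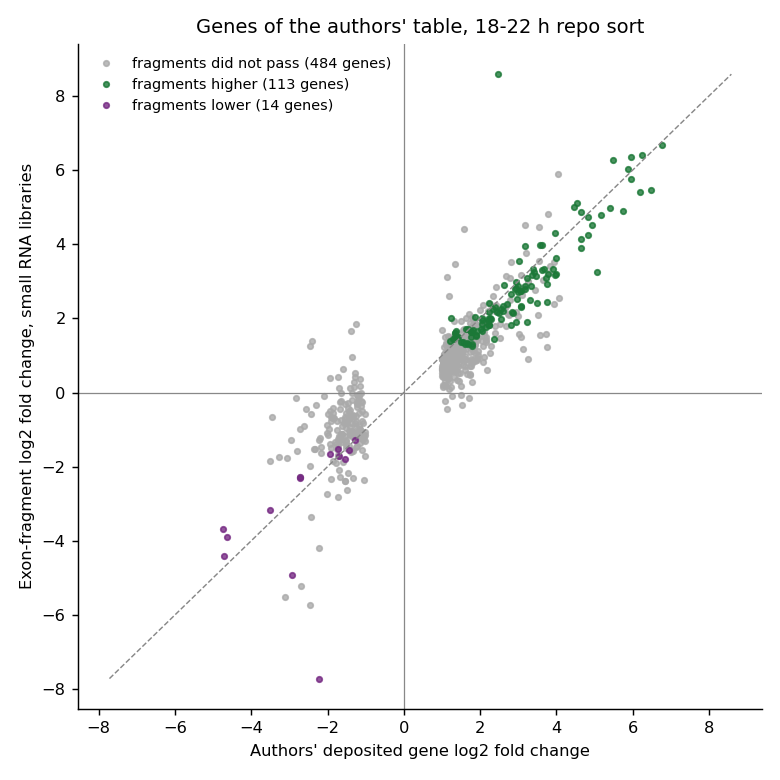
For 611 genes, the log2 fold change of the authors' deposited table (horizontal) and that of exon fragments in the small RNA libraries (vertical), repo-positive over repo-negative cells at 18-22 h. Green dots are the 113 genes whose fragments were called higher, purple dots the 14 called lower, and the dashed line marks equal values.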

How the data were processed

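Per the file headers, the authors' deposited values are expected counts: featureCounts 1.5.1 assigned stranded reads to Ensembl release 85 exons, divided multi-mapped reads among their places and counted a read for every row it overlapped. Bowtie 1.1.2, SAMtools 1.8 and builds BDGP6 and dm6 come from the submitters' processing notes. The authors' deposited table of log2 fold changes and p-values was used for comparison only. The 17559 rows were named with Ensembl release 115 (17253 matched). Hairpins (237) and other rows were fitted separately, without the 59 other rows that overlap a hairpin. Expected counts, of which 78.1% were not whole, were rounded for edgeR 4.0.16 (quasi-likelihood, all 20 libraries in 10 groups, filterByExpr, Benjamini-Hochberg at 0.05, in R 4.3.3), with TMM factors from the unrounded values of the same rows. Biological coefficients of variation were 0.518 and 0.511, with 10 residual degrees of freedom. Replicate 2 of the 6-8 h elav sort held few hairpin counts, 70156 in the elav-positive and 199947 in the elav-negative library. Every other library held 828463 or more. CPM are TMM-scaled. The unrounded TMM was settled after call counts under many scalings had been seen. The members, lists and tests were chosen with earlier results of these data known.

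Named hairpins were those called without overlap and with at least 10 CPM in the higher fraction (up to 10 per direction), those at an unadjusted p under 0.05 without overlap, the 5 most abundant and list members. Named other rows were those called without overlap at 5 CPM or more (up to 15 gene rows and 6 of each non-coding class per direction), list members and the sort genes. Alternatives were RLE, total-count and all-row scaling, no filter, DESeq2 1.42.0, fewer libraries, the replicate block and leaving out each library.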

Additional observations from a re-analysis of the deposited data

Results flagged for a closer look

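The repo contrast differed between 18-22 h and 6-8 h, by the test of the difference itself (edgeR, adjusted p under 0.05), for 8 hairpins. The difference on the log2 scale was -5.83 for mir-1017, -4.79 for mir-219, -4.29 for mir-87, -3.13 for mir-993, -2.90 for mir-927, -2.90 for mir-252, -2.69 for mir-263b and -2.45 for mir-276b. Among the other rows it was 4.203 for bnb, -6.32 for CG6550, -5.45 for Cht8, -4.02 for Ntf-2r, -3.97 for teq, -3.94 for CG2604, -3.29 for Tig, -3.12 for zormin, -2.57 for Ank2 and -2.19 for chinmo.

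The repo contrast differed from the elav contrast at 18-22 h, by the same kind of test, for the 9 hairpins called in the repo sort. The difference was 4.99 for mir-252, 4.15 for mir-ban, 3.24 for mir-279, 2.13 for mir-312, 1.84 for mir-31a, 1.84 for mir-31b, 1.72 for mir-276a, 1.39 for mir-8 and 1.31 for mir-283. By total hairpin counts the difference for mir-283 turned to -0.056.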

How the results depend on the processing

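Hairpin calls in the repo sort (9) were 0 with TMM factors from all rows, 17 with DESeq2, 32 with the 4 libraries alone, 37 with the 8 of 18-22 h, 19 without both elav 6-8 h replicate 2 libraries, 3 without the 5 most abundant hairpins in the scaling, and 0 to 3 without 1 library. Settings added after seeing the data gave 3 with rounded TMM, 16 with adjusted deviances, and 1 to 20 over the TMM reference libraries. Other-row calls (272) were 437 with DESeq2, 581 with 4 libraries, 558 with 8, 435 with adjusted deviances and 67 to 135 without 1 library. Hairpin stage differences (8) were 3 with RLE factors, 0 with all-row TMM (edgeR; unadjusted p under 0.05 for 3), 16 with DESeq2, 23 without both elav libraries, 3 without the 5 abundant hairpins, 1 with rounded TMM and 1 to 9 without 1 library. Repo minus elav differences (34) were 0 with all-row TMM, 64 with 8 libraries and 7 to 8 without 1 library. Other-row stage differences (10) were 25 with RLE factors, 5 by total count, 79 without a filter, 117 with DESeq2, 53 without both elav libraries, 28 without rRNA in the scaling, 37 with classes scaled apart, 40 with adjusted deviances and 1 to 7 without 1 library. The cause was not tested. Repo minus elav for mir-283 turned to -0.056 by total count. With overlapping rows kept in the total, mean hairpin shares were 20.5% in repo-positive and 14.1% in repo-negative libraries, against 25.7% and 16.0% without those rows. In the same order, kept shares were 32.6% and 36.1% for rRNA, 12.2% and 18.8% for snoRNA, and 6.64% and 8.33% for gene fragments. With a replicate block the calls were 18 for hairpins, 320 for other rows, 25 and 67 for the stage differences and 47 for repo minus elav. The labels do not say that numbers pair libraries, and deviations of same-numbered libraries correlated at 0.296 (hairpins) and 0.0724 (other rows). For single rows, 1151 values of the repo contrast kept sign and call and 209 lost the call, and of the differences 249 kept both, 137 lost the call and 1 changed sign. With 2 libraries a fraction, the number of libraries limits these tests.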
